A study of Mus musculus with 53 samples.

Results

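Genes of fatty acid uptake, activation and binding were followed in the sciatic nerve of mice with diet-induced prediabetes and type 2 diabetes (T2D). The 9 genes were chosen by name from the 49568 listed, with earlier results of these data known. They comprised the transporters Cd36, Slc27a1 and Slc27a4, the activating enzyme Acsl1 and the carriers Fabp4, Fabp5, Fabp3, Fabp7 and Pmp2. Counts among the 9 are therefore a description beside the share over all genes, not a test of the set. RNA from 53 nerves of C57BL/6J mice was sequenced in 8 groups, and each nerve gave 1 library. SD mice ate a standard diet and were taken at 16 weeks (SD16, 5 samples) or 24 weeks of age (SD24, 8). HFD mice were given a high-fat diet, with 60% of its calories as fat, starting at an age of 5 weeks, and were taken at 16 weeks (HFD16, 7) or 24 weeks (HFD24, 7). HFD-STZ mice ate the same diet and, aged 12 weeks, received streptozotocin, a toxin of the insulin-producing beta cells, first at 75 mg/kg and after 3 days at 50 mg/kg (HFD-STZ16, 5 samples; HFD-STZ24, 8). Dietary reversal (DR) moved HFD and HFD-STZ mice, aged 16 weeks, to a control diet with 13% of its calories as fat, which they ate for 8 weeks (HFD-DR24, 7; HFD-STZ-DR24, 6). The fat content of the control diet is that of the series description. The study's own text gives a lower one for its standard diet and describes reversal as a return to it. All samples are whole pieces of nerve, so fewer cells of a type and less RNA per cell cannot be told apart.

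Fatty acids enter cells with the help of membrane proteins such as CD36 and the fatty acid transport proteins of the SLC27 family, and long-chain acyl-CoA synthetases trap them inside by coupling them to coenzyme A. Small cytosolic fatty acid binding proteins then carry them through the cell to membranes, lipid droplets, mitochondria or the nucleus. In peripheral nerve, myelinating Schwann cells use large amounts of fatty acid to build myelin, while the fat tissue around and within the nerve sheath stores them as triglyceride.

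Expression was given on a log2 scale, normalised between samples by the authors, so a difference of 1 is a 2-fold change. The study's methods give only an approximate number of reads per sample, not the depth of each library, so no counting error can be given. Differences were tested with limma on the samples of the groups compared, with p adjusted by Benjamini-Hochberg across every gene in the fit, and a gene was called at an adjusted p under 0.05. All 9 genes passed the filter on low values in every comparison. A library labelled HFD-STZ24 replicate 7 stood apart: 767 genes were more than 1 log2 unit above all other libraries there, against 16 in the next library. Markers of fat and of skeletal muscle varied between samples. The adipocyte score, the mean log2 value of Adipoq, Plin1, Cidec, Cfd, Retn and Adig, ran from 7.61 to 12.97 over all samples. The skeletal muscle score, from Acta1, Ckm, Myh4, Mylpf, Tnnt3 and Actn3, ran from 7.05 to 17.43. None of these markers was at 0 in any sample, and the myelin markers that define the tissue were high in every library, with a score of at least 15.45.

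In GENCODE M21 (GRCm38), 3 of the carriers are neighbours on chromosome 3: Fabp5 (10012548 to 10016607, plus strand), Pmp2 (10179851 to 10183929, minus strand) and Fabp4 (10204088 to 10208576, minus strand). Cd36 lies on chromosome 5 (17781690 to 17888801, minus strand), Fabp3 on chromosome 4 (130308595 to 130315463, plus strand) and Fabp7 on chromosome 10 (57784881 to 57788450, plus strand). Slc27a4 is on chromosome 2 (29802634 to 29817522), and Acsl1 (46471037 to 46536051) and Slc27a1 (71568882 to 71587302) are on chromosome 8, all on the plus strand. For Pmp2, 86.1% of the 100-base stretches of its transcript also belong to Gm37389, a same-strand gene model that spans Pmp2 and Fabp9, and Gm37389 was listed at 0 in all 53 samples. How reads shared by both models were counted is not given in the sources used here, so the level of Pmp2 is uncertain. Whether its differences between samples stand for the whole transcript was not tested. For Fabp3, 21.7% of the stretches also occur in the pseudogene Fabp3-ps1, and the gene overlaps Zcchc17 and Gm10570 on the opposite strand in libraries that did not mark strand. Acsl1 overlaps Gm45244 in the same way. The other transcripts shared 0% of their stretches with other genes, apart from 0.382% of Fabp5 with Gm6166.

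RefSeq promoter entries (GRCm38.p6) were matched for 6 of the 9 genes, and those of Cd36 and Acsl1 are shown because these 2 varied together most closely among the 6. The 250 bases before a start site are shown 5′ to 3′ along the gene. Capitals mark 3 motifs on either strand: the nuclear receptor half-site AGGTCA, the CCAAT box and the GC box GGGCGG. The Cd36 window (chr5:17835897-17836146, minus strand) precedes a start site inside the longer GENCODE gene, and the Acsl1 window (chr8:46470787-46471036, plus strand) precedes the first of its 2 listed starts.
Cd36: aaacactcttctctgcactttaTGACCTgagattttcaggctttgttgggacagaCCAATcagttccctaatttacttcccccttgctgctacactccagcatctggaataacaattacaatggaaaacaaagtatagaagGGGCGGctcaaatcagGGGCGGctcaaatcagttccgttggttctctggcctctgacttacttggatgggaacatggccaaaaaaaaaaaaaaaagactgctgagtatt
Acsl1: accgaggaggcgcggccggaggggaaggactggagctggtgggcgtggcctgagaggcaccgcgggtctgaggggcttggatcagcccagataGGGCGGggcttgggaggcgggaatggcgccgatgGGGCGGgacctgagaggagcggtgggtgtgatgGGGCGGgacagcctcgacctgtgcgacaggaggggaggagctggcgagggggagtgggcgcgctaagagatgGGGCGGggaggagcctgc
The Cd36 window held 1 half-site, read on the reverse strand, 1 CCAAT box and 2 GC boxes, and the Acsl1 window held 4 GC boxes and neither of the others. Of the 32851 windows of the same length listed, 14.02% held AGGTCA, 33.8% CCAAT and 32.7% GGGCGG on either strand.

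Cd36, the scavenger receptor that takes up long-chain fatty acids, was among the most variable genes of the nerve. Its log2 values in SD16 mice were 10.62, 11.29, 12.05, 12.94 and 13.70. In HFD16 mice they ran from 13.24 over a median of 13.71 to 15.56, and in HFD-STZ16 mice they were 11.58, 12.28, 13.13, 13.38 and 14.15. Of the 7 HFD16 mice, 4 lay above every SD16 mouse, and the HFD-STZ16 mice spread across both groups. At 24 weeks, SD mice ran from 12.47 over 13.55 to 14.50, HFD mice from 13.06 over 14.71 to 15.84 and HFD-STZ mice from 12.34 over 14.64 to 15.25. Of these, 4 of 7 HFD24 and 5 of 8 HFD-STZ24 mice lay above every SD24 mouse. After dietary reversal, HFD-DR24 mice ran from 11.97 over 13.21 to 14.57 and HFD-STZ-DR24 mice from 11.11 over 12.48 to 13.64. All 6 HFD-STZ-DR24 mice were below 6 of the 8 HFD-STZ24 mice.

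Fabp4, the fatty acid binding protein of adipocytes and some macrophages and endothelial cells, gave the groups in the same order of mean level as Cd36. SD16 mice had log2 values of 10.08, 11.42, 12.83, 13.28 and 14.29, and HFD-STZ16 mice of 11.16, 12.72, 13.45, 13.70 and 14.82. HFD16 mice were higher and narrower, from 13.85 over a median of 14.71 to 15.76. The HFD16 mice thus sat in the upper part of the other 16-week ranges or above them. At 24 weeks, the values ran from 11.78 over 14.27 to 14.37 in SD, from 13.42 over 14.83 to 16.29 in HFD and from 12.73 over 14.99 to 15.69 in HFD-STZ mice. Reversal gave 12.12 over 13.76 to 14.71 in HFD-DR24 and 10.81 over 12.64 to 13.67 in HFD-STZ-DR24 mice. The groups overlapped in each comparison, and 6 of 8 HFD-STZ24 mice lay above every SD24 mouse. In group means, both Cd36 and Fabp4 were highest in HFD24 (14.54 ± 1.15 and 14.89 ± 1.19, SD, n = 7) and lowest in SD16 (12.12 ± 1.24 and 12.38 ± 1.65, SD, n = 5). Of the 7 pairs of neighbours in the order of each gene, the only one with p under 0.05 was HFD16 above SD24 for Fabp4 (exact permutation p = 0.0479, 2-sided), so the order itself is not resolved.

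Acsl1, the acyl-CoA synthetase most abundant in fat, heart and liver, moved over a smaller range. SD16 mice had log2 values of 12.04, 12.17, 12.28, 12.79 and 13.36 and HFD-STZ16 mice of 12.11, 12.31, 12.44, 12.45 and 12.91, while HFD16 mice ran from 12.41 over 12.77 to 14.30. At 24 weeks, the range was 12.40 to 13.83 in SD (median 13.13), 12.43 to 14.82 in HFD (13.62) and 12.10 to 13.96 in HFD-STZ mice (13.31). HFD-DR24 mice ran from 12.10 over 12.98 to 14.11, and HFD-STZ-DR24 mice from 12.10 over 12.37 to 13.48. All groups overlapped, and each reached down to nearly the same lowest level, between 12.04 and 12.43.

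The fatty acid transport proteins Slc27a1 (FATP1) and Slc27a4 (FATP4), which couple uptake to activation, varied little between samples. Over all 53 samples, Slc27a1 ran from 13.97 to 14.69 and Slc27a4 from 10.65 to 11.82. Group means of Slc27a1 spanned 0.15 log2 units, from 14.22 ± 0.13 in HFD-DR24 (SD, n = 7) to 14.38 ± 0.16 in HFD-STZ24 (SD, n = 8). Those of Slc27a4 spanned 0.28, from 11.05 ± 0.21 in HFD-STZ-DR24 (SD, n = 6) to 11.33 ± 0.13 in SD16 (SD, n = 5). The highest Slc27a4 value, 11.82, was that of HFD-STZ24 replicate 7. Among 18069 genes, the SD over all samples put Slc27a1 at percentile 12.2 and Slc27a4 at 25.1, against 98.2 for Cd36, 98.7 for Fabp4 and 91.9 for Acsl1.

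Fabp5, the epidermal-type binding protein also found in adipocytes, macrophages and Schwann cells, stayed between 11.06 and 12.28 in all samples. Its group means ran from 11.43 ± 0.21 in HFD-DR24 (SD, n = 7) to 11.78 ± 0.21 in HFD-STZ24 (SD, n = 8). SD24 mice ran from 11.16 over 11.47 to 11.91, HFD24 from 11.42 over 11.60 to 12.28 and HFD-STZ24 from 11.50 over 11.83 to 12.08. The upper part of the HFD-STZ24 group, 4 of 8 mice, lay above every SD24 mouse. HFD-DR24 mice ran from 11.06 over 11.53 to 11.65 and HFD-STZ-DR24 mice from 11.24 over 11.43 to 11.80. Of these, 3 of 7 HFD-DR24 mice were below every HFD24 mouse and 4 of 6 HFD-STZ-DR24 mice below every HFD-STZ24 mouse.

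Fabp3, the binding protein of heart and skeletal muscle, had the largest spread of the 9 genes, from 5.76 to 13.59, at percentile 99.7 of all genes. SD16 mice had log2 values of 5.76, 6.00, 6.00, 6.11 and 8.73 and HFD-STZ16 mice of 5.78, 5.84, 5.87, 6.24 and 6.58. HFD16 mice ran from 6.03 over 6.26 to 11.39. At 16 weeks most mice were thus near the low end, with a few higher samples in SD16 and HFD16. At 24 weeks, every group held both low and high mice, with 5.82 to 12.62 in SD (median 8.03), 5.87 to 10.96 in HFD (7.94) and 5.91 to 12.75 in HFD-STZ mice (9.32). HFD-DR24 mice ran from 6.96 over 9.65 to 13.59 and HFD-STZ-DR24 mice from 6.09 over 6.53 to 13.35.

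Fabp7, the brain-type binding protein of glia, lay between 5.41 and 7.71 in 52 samples. In HFD-STZ24 replicate 7 it was 11.39, and the other 7 mice of that group ran from 6.12 to 6.91. Group medians lay between 6.32 in SD24 and 6.84 in SD16, less than the range within any group. Pmp2 (also called P2 or FABP8), a carrier in the cytosol and compact myelin of Schwann cells, ran from 6.81 to 8.70. SD16 mice had log2 values of 8.17, 8.18, 8.27, 8.47 and 8.70 and HFD-STZ16 mice of 7.78, 8.09, 8.17, 8.36 and 8.50, while HFD16 mice ran from 7.55 over 7.82 to 8.33. SD24 mice ran from 7.02 over 7.77 to 7.89, HFD24 from 6.81 over 7.45 to 7.88 and HFD-STZ24 from 7.03 over 7.77 to 8.20. Each SD24 mouse was below each SD16 mouse. HFD-DR24 mice ran from 7.53 over 7.65 to 8.03 and HFD-STZ-DR24 mice from 7.54 over 8.19 to 8.56, and 4 of these 6 were above every SD24 mouse. Group differences made up 49.3% of the variance of Pmp2 over all samples, 44.3% of that of Fabp4 and 41.6% of that of Cd36. For Fabp7 the share was 9.43%, of a variance that includes HFD-STZ24 replicate 7 at 11.39. Part of any such share arises by chance, and the share over all genes is not given.

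**Figure D1:**
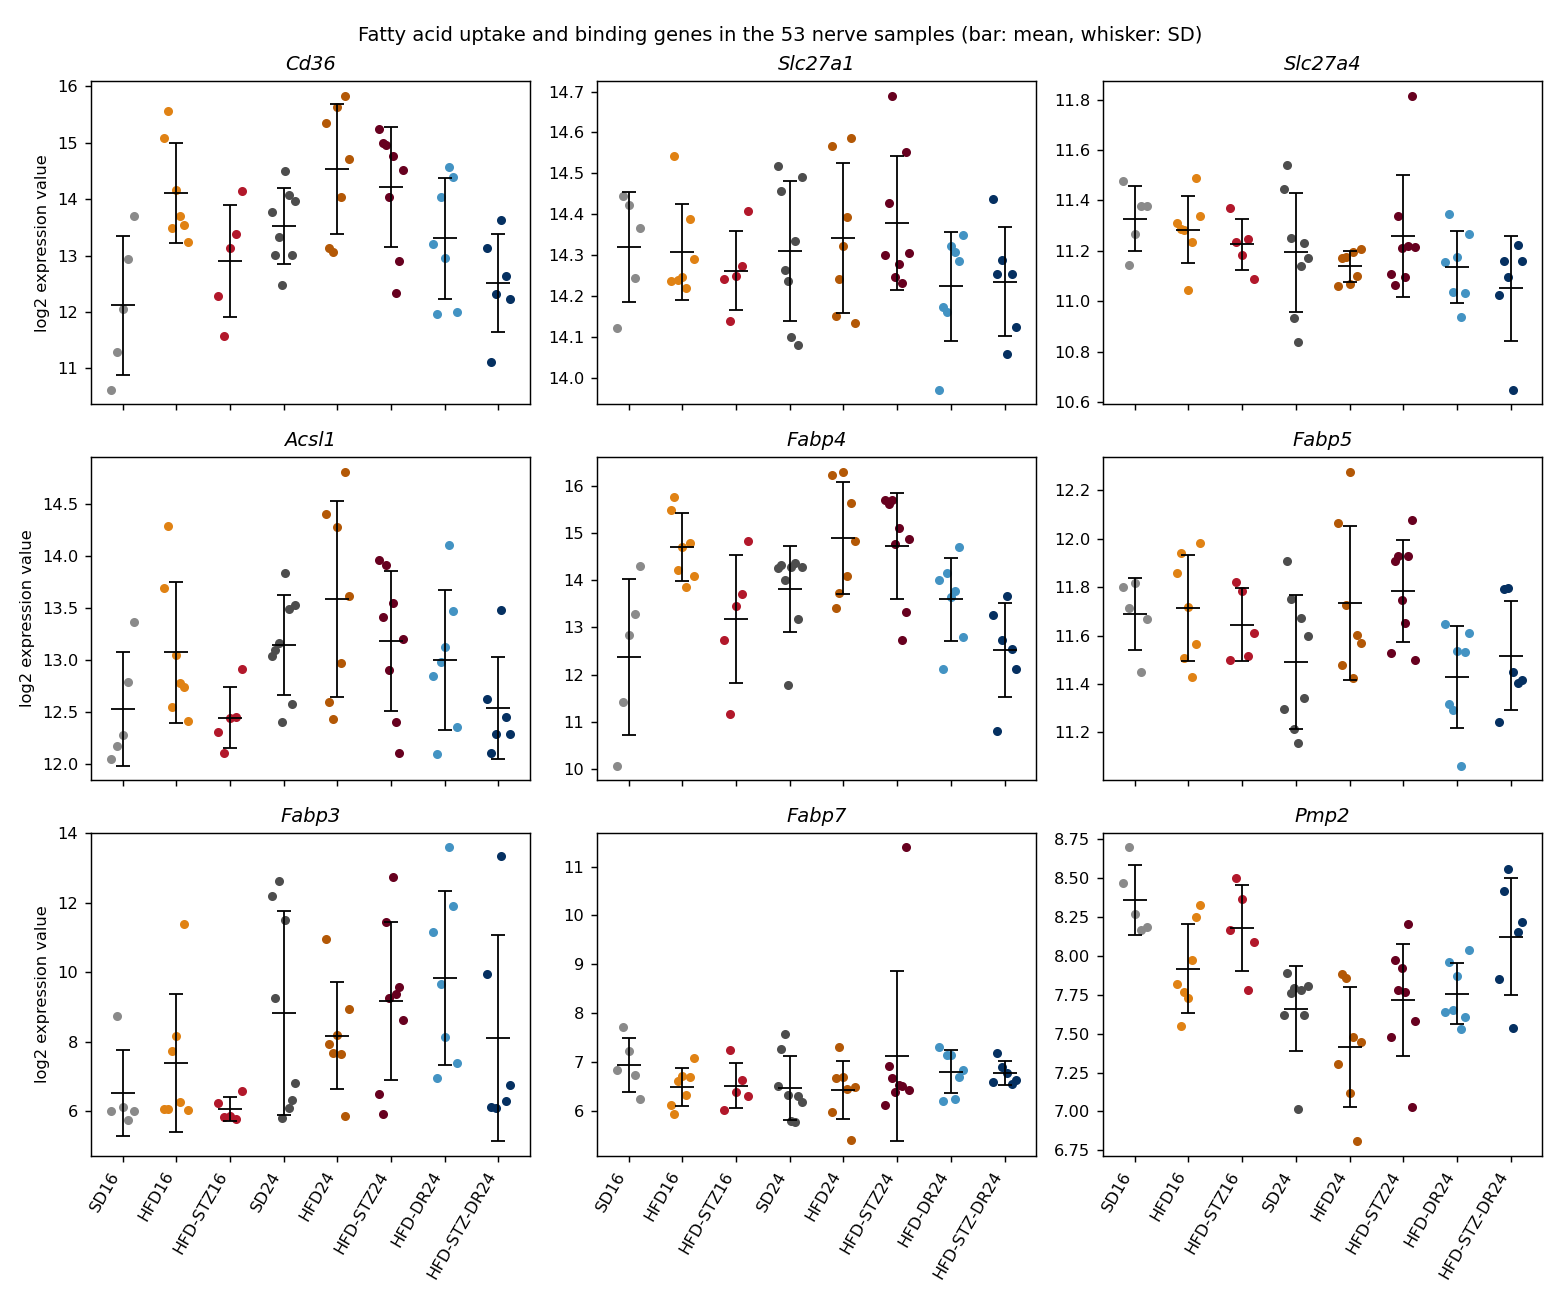
Log2 expression value (y axis, a separate scale per gene) of the 9 genes in each nerve sample, by group (x axis); points are samples, bars group means and whiskers SD. Cd36 and Fabp4 are highest in HFD24 and lowest in SD16, Pmp2 is highest in SD16, and 1 HFD-STZ24 sample stands out for Fabp7 at 11.39.

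At 16 weeks, Cd36 and Fabp4 were higher in HFD than in SD mice and Pmp2 was lower, at an unadjusted p under 0.05 that adjustment over all genes did not keep. Cd36 was higher by 1.99 (SE 0.52), a 3.98-fold difference, with exact permutation p = 0.0101 and adjusted p = 0.372 in limma with Benjamini-Hochberg adjustment. Fabp4 was higher by 2.31 (SE 0.60), a 4.97-fold difference, with the same exact permutation p and adjusted p = 0.358. Pmp2 was lower, with a log2 difference of -0.44 (SE 0.15, adjusted p = 0.493). In limma, 0 of 9 genes were called, against 0.00557% of the 17962 genes tested, and 3 of 9 had an unadjusted p under 0.05, against 8.55%. The median difference of the 9 was 0.02, and that of all genes 0.01. The adipocyte markers moved with Cd36 and Fabp4: all 6 were higher in HFD16, 4 of them at an unadjusted p under 0.05, and their median difference was 1.75. Their score ran from 7.61 to 12.03 in SD16 and from 10.77 to 12.72 in HFD16. With this score as a covariate, the difference of Cd36 was 0.77 and that of Fabp4 0.92. The markers of myelinating Schwann cells moved with Pmp2: all 5 were lower in HFD16, 2 at an unadjusted p under 0.05, with a median difference of -0.26, and their part in the Pmp2 difference was not tested. Without SD16 replicate 5, the sample with the highest Cd36 and Fabp4 of its group, 5 of 9 genes had an unadjusted p under 0.05. For fits that left out a sample, here and below, the share over all genes is not given, so such counts cannot be set against it.

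Streptozotocin at 16 weeks went with lower Cd36, Fabp4 and Acsl1 than HFD alone. The log2 differences of HFD-STZ16 from HFD16 were -1.52 (SE 0.51, exact permutation p = 0.0278) for Fabp4, -1.21 (SE 0.46, exact permutation p = 0.0556) for Cd36 and -0.63 (SE 0.28, exact permutation p = 0.0581) for Acsl1. Adjusted p in limma was 0.987 for each. None of the 9 was called, against 0% of 18202 genes, and 3 of 9 had an unadjusted p under 0.05, against 4.88%. That count was 1 without HFD-STZ16 replicate 1 or replicate 2. Adipocyte markers were lower as well in 5 of 6 cases, 3 at an unadjusted p under 0.05, and their score ran from 8.73 to 12.12 in HFD-STZ16. With the score as a covariate, the Fabp4 difference was -0.64 and 1 of 9 genes had an unadjusted p under 0.05, against 5.13% of all genes in that fit. Against SD16, Cd36 and Fabp4 of HFD-STZ16 mice were each 0.79 higher (SE 0.59 and 0.79). All 6 adipocyte markers were higher as well (median 0.70), with 0 at an unadjusted p under 0.05. In limma, 0 of 9 genes were called, against 0% of 17879, and 0 of 9 had an unadjusted p under 0.05, against 8.41%. Without SD16 replicate 5 or HFD-STZ16 replicate 2 this count was 1.

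At 24 weeks, Cd36 was 2.03-fold and Fabp4 2.11-fold higher in HFD than in SD mice, and neither passed adjustment. The log2 difference was 1.02 (SE 0.43, exact permutation p = 0.0541) for Cd36 and 1.08 (SE 0.49, exact permutation p = 0.0696) for Fabp4, with adjusted p of 0.505 and 0.533 in limma with Benjamini-Hochberg adjustment. Acsl1 differed by 0.45 (SE 0.34, exact permutation p = 0.257) and Fabp5 by 0.24 (SE 0.14, exact permutation p = 0.140). In limma, 0 of 9 were called, against 0.121% of 18191 genes, and 2 of 9 had an unadjusted p under 0.05, against 9.05%. Without SD24 replicate 4 or 7, or HFD24 replicate 1, 4 or 6, that count was 0, and without HFD24 replicate 7 it was 1.

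The adipocyte markers split in this comparison, with 3 higher and 3 lower in HFD24. Cidec, a lipid droplet protein, and the adipokine Adipoq were higher in HFD24 than in SD24 (means 13.34 against 12.25 and 13.34 against 12.56), while Cfd, the complement factor adipsin, was lower by 1.87 on the log2 scale (13.26 against 15.13, adjusted p = 0.139 in limma with Benjamini-Hochberg adjustment). Retn (10.83 against 11.18) and Adig (8.40 against 8.42) were lower as well. The score as a whole ran from 9.95 to 12.64 in SD24 and from 10.31 to 12.97 in HFD24. With it as a covariate, Cd36 and Fabp4 were called in limma with differences of 1.02 and 1.07 (Benjamini-Hochberg adjusted p = 0.00116 and 0.00223), among 191 genes in all. That fit also called markers of the score itself, Adipoq (0.77) and Cidec (1.09) as higher and Cfd (-1.87) as lower. The score thus did not level its own markers, and whether Cd36 and Fabp4 differed beyond the amount of fat was not tested. With Cfd left out of the score, an alternative chosen after these values were seen, the difference of Cd36 was 0.69 (adjusted p = 0.0359) and that of Fabp4 0.70 (adjusted p = 0.0626). Of the markers left in that score, Retn was called as lower (-0.72) and Adipoq (0.39) and Cidec (0.70) as higher.

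In HFD-STZ24 against SD24 mice, all 9 genes had a positive log2 difference, with a median of 0.29 against 0.00 over all genes. Fabp5 was higher by 0.29 (SE 0.12, exact permutation p = 0.0337, adjusted p = 0.813 in limma). Fabp4 differed by 0.91 (SE 0.46, exact permutation p = 0.0960) and Cd36 by 0.70 (SE 0.41, exact permutation p = 0.135). All 5 myelinating Schwann cell markers were lower (median -0.12), while Pmp2 differed by 0.06 (SE 0.16). Adipocyte markers were higher in 5 of 6 cases (median 0.24) and non-myelinating Schwann cell markers in 5 of 5 (0.17). All 6 markers each of skeletal muscle (-1.80) and fibroblasts (-0.34) were lower, as were 4 of 6 each of endothelium (-0.01) and macrophages (-0.13). Calls in limma were 0 of 9, against 0.0336% of 17846 genes, and 1 of 9 had an unadjusted p under 0.05, against 5.99%. Without HFD-STZ24 replicate 6 or replicate 7, the 2 samples of the group with the lowest adipocyte scores (10.49 and 10.27, against 11.87 to 12.81 in the other 6), 3 of 9 did. The count was also 3 with the adipocyte score as a covariate, where 9.34% of all genes had such a p. Leaving out replicate 7, which stood apart, moved the difference of Fabp7 from 0.65 to 0.04 and turned that of Slc27a4 from 0.064 to -0.015.

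Between HFD-STZ24 and HFD24 mice, no difference of the 9 genes passed the test. The log2 differences were -0.32 (SE 0.52) for Cd36, -0.16 (SE 0.54) for Fabp4 and -0.41 (SE 0.38) for Acsl1, and those of Fabp5 and Slc27a1 were 0.05 (SE 0.13) and 0.04 (SE 0.09). In limma, 0 of 9 were called, against 0% of 18117 genes, and 0 of 9 had an unadjusted p under 0.05, against 5.59%. Without HFD-STZ24 replicate 7 the count was 1, Pmp2 (0.40, adjusted p = 0.934 in limma), the Fabp7 difference was 0.08 in place of 0.69 and that of Fabp4 turned from -0.16 to 0.03. Adding the adipocyte score as a covariate gave 3 of 9, against 13.8% of all genes in that fit.

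Dietary reversal of HFD mice went with lower Cd36, Fabp4 and Fabp5 and higher Pmp2. The log2 difference was -1.29 for Fabp4 (SE 0.49, exact permutation p = 0.0431), -1.23 for Cd36 (SE 0.53, exact permutation p = 0.0664) and -0.31 for Fabp5 (SE 0.13, exact permutation p = 0.0530). For Pmp2 it was 0.34 (SE 0.16, exact permutation p = 0.0606). None passed adjustment in limma: the adjusted p was 0.651 for Fabp4, 0.716 for Cd36, 0.721 for Fabp5 and 0.737 for Pmp2. Calls numbered 0 of 9, against 0.0108% of 18475 genes, and 4 of 9 had an unadjusted p under 0.05, against 6.72%. This count was 1 without HFD24 replicate 4, and 2 without HFD24 replicate 1, 6 or 7 or HFD-DR24 replicate 1, 2, 3, 4 or 7. Of the adipocyte markers, 5 of 6 were lower, 2 at an unadjusted p under 0.05, and 1 was higher at that level. The score ran from 9.48 to 12.52 in HFD-DR24 mice. With it as a covariate, Fabp4 was called (-0.79, adjusted p = 0.0128 in limma with Benjamini-Hochberg adjustment) and Cd36 was not (-0.72, adjusted p = 0.252). With Cfd left out of the score, neither was called (-0.48, adjusted p = 0.310, and -0.40, adjusted p = 0.705). The fit with the full score also called its own markers Cidec (-0.93) and Cfd (1.67). Of the macrophage markers, 5 of 6 were lower after reversal, 3 at an unadjusted p under 0.05 (median -0.49), and of the myelinating Schwann cell markers 4 of 5 were higher, 2 at that level (median 0.13). The part of these cells in the differences was not tested. All 6 skeletal muscle markers were higher after reversal, 4 at an unadjusted p under 0.05 (median 2.58). Their score ran from 9.77 to 15.65, against 7.51 to 15.32 in HFD24 mice. Fabp3 differed by 1.66 (SE 0.98, exact permutation p = 0.162), and the part of muscle in this was not tested.

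Reversal of HFD-STZ mice went with the largest differences of Cd36 and Fabp4 among the 24-week comparisons. Fabp4 was at 0.217 of the HFD-STZ24 level (log2 difference -2.20, SE 0.52, exact permutation p = 0.00533, adjusted p = 0.155 in limma with Benjamini-Hochberg adjustment). Cd36 was at 0.306 of it (-1.71, SE 0.48, exact permutation p = 0.00999, adjusted p = 0.258). Of the 6 reversed mice, 3 were below every HFD-STZ24 mouse for each of these genes. Acsl1 differed by -0.65 (SE 0.30, exact permutation p = 0.0713) and Fabp5 by -0.27 (SE 0.11, exact permutation p = 0.0466). Pmp2 differed by 0.41 (SE 0.19, exact permutation p = 0.0606), and Slc27a1 and Slc27a4 by -0.14 (SE 0.09) and -0.21 (SE 0.12). Calls were 0 of 9, against 0.084% of 17862 genes, and 4 of 9 had an unadjusted p under 0.05, against 6.48%. The median difference of the 9 was -0.34, against 0.01 over all genes.

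Single libraries decided calls in this comparison. Without HFD-STZ24 replicate 6, Cd36 (-1.98, adjusted p = 0.0397) and Fabp4 (-2.49, adjusted p = 0.0182) were both called in limma, among 167 genes, and without replicate 7, Fabp4 was called (-2.40, adjusted p = 0.0494), among 117. Without HFD-STZ24 replicate 3 or HFD-STZ-DR24 replicate 5 or 6, 2 of 9 genes had an unadjusted p under 0.05. Centring each sample on its median also gave 2, against 6.89% of all genes in that fit. All 6 adipocyte markers were lower after reversal, 5 at an unadjusted p under 0.05, with a median difference of -1.82. All 6 endothelial markers were lower too, 3 at an unadjusted p under 0.05, with a median difference of -0.22. The adipocyte score ran from 8.17 to 11.09 in HFD-STZ-DR24 and from 10.27 to 12.81 in HFD-STZ24. With the score as a covariate, the difference was -0.42 for Fabp4 (adjusted p = 0.448) and -0.08 for Cd36 (adjusted p = 0.896), and Acsl1 turned to 0.20. With Cfd left out of the score it was -0.21 for Fabp4, and Cd36 turned to 0.10. What part fat tissue or endothelium had in these differences was not tested.

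Reversed mice were also set against SD24. For HFD-DR24 mice the log2 differences were -0.21 for both Cd36 (SE 0.41) and Fabp4 (SE 0.41). All 5 myelinating Schwann cell markers were lower (median -0.03), while Pmp2 differed by 0.10 (SE 0.13). All 6 markers each of adipocytes (median -0.49), macrophages (-0.27) and endothelium (-0.05) were lower, and all 6 of skeletal muscle were higher (0.89). Fibroblast markers were lower in 5 of 6 cases (-0.11), and non-myelinating Schwann cell markers higher in 4 of 5 (0.17). What part these cells had in the differences was not tested. In limma, 0 of 9 genes were called, against 0% of 18145, and 0 of 9 had an unadjusted p under 0.05, against 5.14%. HFD-STZ-DR24 mice had lower Fabp4 (-1.29, SE 0.46), Cd36 (-1.01, SE 0.37) and Acsl1 (-0.60, SE 0.24) and higher Pmp2 (0.46, SE 0.17), with exact permutation p of 0.0333, 0.0306, 0.0466 and 0.0187. Their adjusted p ran from 0.414 to 0.465 in limma. Calls were 0 of 9, against 0% of 17889 genes, and 4 of 9 had an unadjusted p under 0.05, against 9.16%. All 6 adipocyte markers were lower, each at an unadjusted p under 0.05, with a median difference of -1.55. All 6 endothelial markers were lower too, 2 at that level (median -0.28). So were all 6 each of macrophages (-0.36), fibroblasts (-0.20) and skeletal muscle (-0.98), none at that level. Of the Schwann cell markers, 3 of 5 myelinating and 4 of 5 non-myelinating ones were higher. What part these cells had in the differences was not tested. With the adipocyte score as a covariate, 0 of 9 genes had an unadjusted p under 0.05, against 1.12% of all genes, and Cd36 (0.10) and Fabp4 (0.12) turned direction. HFD-STZ-DR24 against HFD-DR24 mice gave 0 of 9 calls, against 0% of 18189 genes, and 2 of 9 at an unadjusted p under 0.05, against 3.58%: Fabp4 (-1.07, SE 0.46) and Pmp2 (0.37, SE 0.16). All 6 adipocyte markers were lower there, 1 at an unadjusted p under 0.05 (median -1.05), and 4 of 5 myelinating Schwann cell markers were higher (median 0.10). With the adipocyte score as a covariate, 0 of 9 genes had such a p, against 1.51%.

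Age went with higher Cd36, Fabp4 and Acsl1 and lower Pmp2 in SD mice. Pmp2 had a log2 difference of -0.70 between 24 and 16 weeks (SE 0.15), at 0.617 of the younger level, with exact permutation p = 0.00155 and adjusted p = 0.223 in limma. It was the only one of the 9 genes whose groups did not overlap, which 0.495% of 17788 genes showed. All 5 myelinating Schwann cell markers were lower as well (median -0.27), with 0 at an unadjusted p under 0.05. So were all 5 non-myelinating ones, 2 at that level (median -0.18). The myelinating score ran from 15.91 to 16.41 in SD16 mice and from 15.50 to 16.31 in SD24 mice. What part these cells had in the Pmp2 difference was not tested. Cd36 differed by 1.40 (SE 0.46, exact permutation p = 0.0280), Fabp4 by 1.43 (SE 0.62, exact permutation p = 0.0855) and Acsl1 by 0.61 (SE 0.26, exact permutation p = 0.0606). Fabp3 was 4.93-fold higher (2.30, SE 1.23, exact permutation p = 0.0995), and all 6 skeletal muscle markers were higher (median 2.24). In limma 0 of 9 were called, against 0%, and 4 of 9 had an unadjusted p under 0.05, against 10.5%. The count was 2 without SD16 replicate 1. With all 8 groups in 1 fit and the stretch of the library numbering as a further term, Pmp2 was called (-0.74, adjusted p = 0.0238 in limma), among 122 genes. The 6 adipocyte markers were all higher at 24 weeks, 5 at an unadjusted p under 0.05, and with their score as a covariate only Pmp2 (-0.53) had an unadjusted p under 0.05, against 3.13% of all genes, while Fabp4 turned to -0.086.

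The same age comparison in HFD mice gave a lower Pmp2 (-0.50, SE 0.17, exact permutation p = 0.0181) and a lower Slc27a4 (-0.14, SE 0.06, exact permutation p = 0.0221) at 24 weeks. All 5 myelinating Schwann cell markers were lower as well, 1 at an unadjusted p under 0.05 (median -0.21). Cd36 and Fabp4 differed by 0.43 (SE 0.48) and 0.19 (SE 0.46). Fabp3 differed by 0.78 (SE 0.83, exact permutation p = 0.431), and all 6 skeletal muscle markers were higher (median 0.46). Calls in limma were 0 of 9, against 0.0654% of 18360 genes, and 2 of 9 had an unadjusted p under 0.05, against 5.9%. With the adipocyte score as a covariate the count was 4, against 9.59%. In HFD-STZ mice, Fabp3 was 8.68-fold higher at 24 weeks (log2 difference 3.12, SE 0.93, exact permutation p = 0.00932, adjusted p = 0.289 in limma). All 6 skeletal muscle markers were higher there too (median 1.68). Fabp4 (1.55, SE 0.61), Cd36 (1.31, SE 0.53) and Acsl1 (0.74, SE 0.29) were higher and Pmp2 lower (-0.46, SE 0.18), each at an unadjusted p under 0.05. All 6 adipocyte markers were higher as well, 5 at that level (median 1.30). All 5 myelinating Schwann cell markers were lower, 1 at that level (median -0.18). What part these cells had in the differences was not tested. Calls were 0 of 9, against 0% of 17963 genes, and 5 of 9 had an unadjusted p under 0.05, against 12.5%. The count was 3 without HFD-STZ16 replicate 1, 1 without replicate 2, and 2 with the adipocyte score as a covariate, where 3060 of 17963 genes had such a p. Fabp7 differed by 0.60, and by -0.0071 without HFD-STZ24 replicate 7. With the skeletal muscle score as a covariate, the Fabp3 difference was 1.99, and the score ran from 7.24 to 9.61 in HFD-STZ16 and from 7.07 to 12.13 in HFD-STZ24. Fabp3-ps1, which shares sequence with Fabp3, differed by 2.08 (SE 0.75).

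Whether the effects differed between conditions was tested directly. The HFD effect on Cd36 was 1.99 at 16 and 1.02 at 24 weeks, and the difference between them was -0.97 (SE 0.71). For Fabp4 it was -1.24 (SE 0.81). The change with reversal in HFD-STZ mice minus that in HFD mice was -0.91 (SE 0.75) for Fabp4 and -0.47 (SE 0.75) for Cd36. None of these passed, with an adjusted p of 1.00 each in limma. For both interactions 0 of 9 genes were called in limma, against 0% of 18087 and 18161 genes, and 0 of 9 had an unadjusted p under 0.05, against 1.67% and 1.71%. With the adipocyte score as a covariate, 1 and 3 of 9 had such a p, against 3.03% and 6.38% of all genes in those fits, and the interaction of Cd36 with reversal turned from -0.47 to 0.71. Without SD16 replicate 5, 1 of 9 had such a p for the HFD effect by age.

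**Figure D2:**
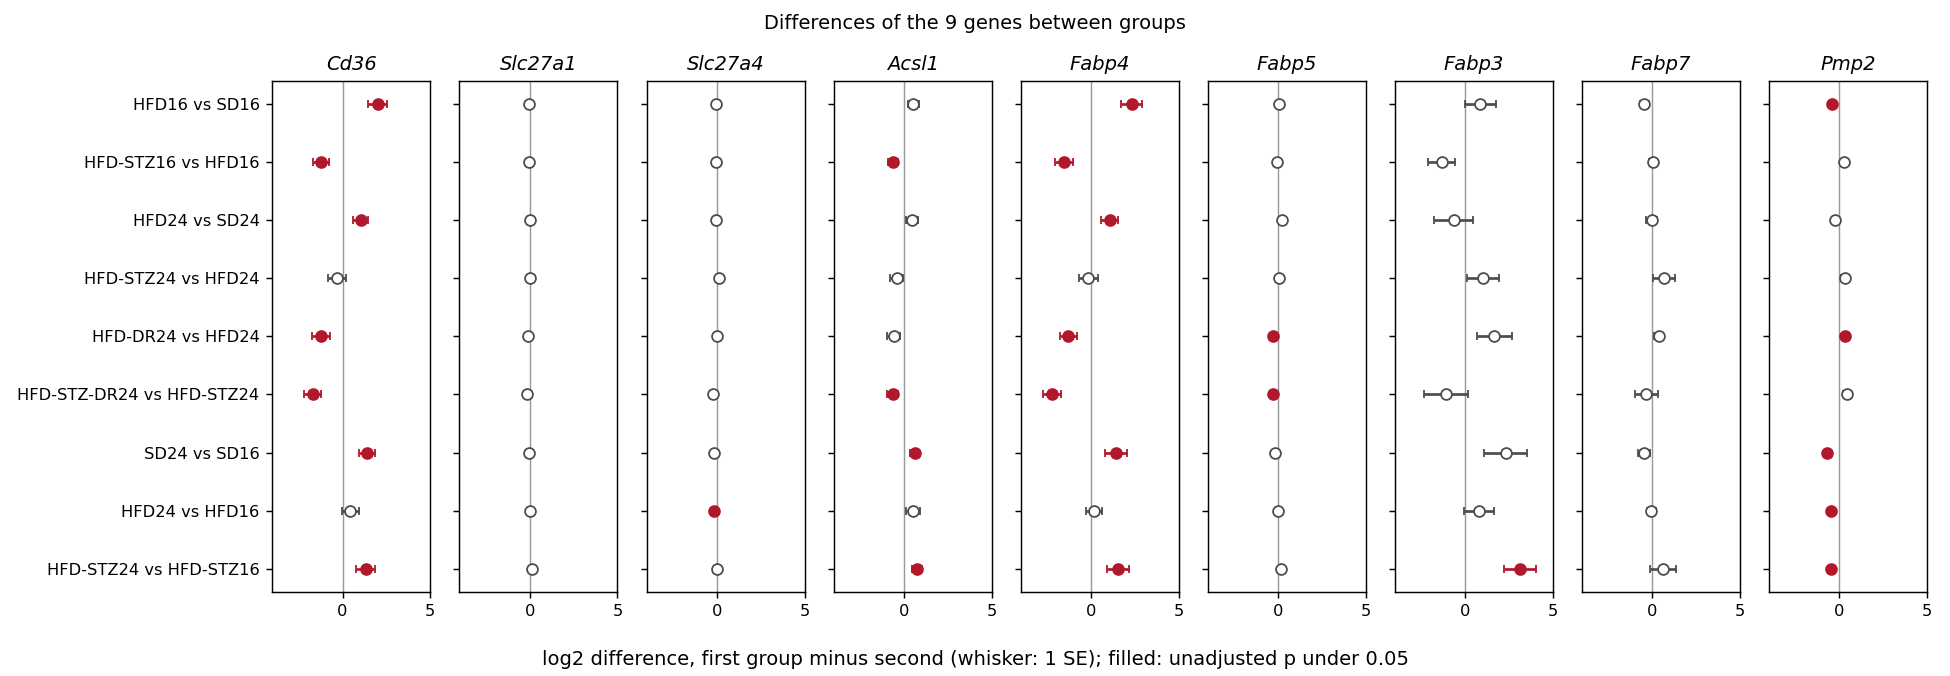
Log2 difference (x axis, first group minus second, whiskers 1 SE) of each of the 9 genes in 9 comparisons (y axis); filled points have an unadjusted p under 0.05 in limma. Cd36 and Fabp4 take the same side in each comparison, from 2.31 above to 2.20 below zero, while Slc27a1 and Slc27a4 stay near zero, reaching -0.14 and -0.21.

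Beyond the groups, some of the 9 genes varied together. The values compared come from the same libraries and so share their tissue makeup and normalisation. Over deviations from the group means in the 53 samples, Pearson's r was 0.92 between Cd36 and Fabp4 (Spearman's rho 0.91), 0.92 between Cd36 and Acsl1 (rho 0.94) and 0.81 between Fabp4 and Acsl1 (rho 0.87). Each had a permutation p of 1e-05, the smallest that 100000 permutations within groups can give, and 9e-05 after Benjamini-Hochberg adjustment over 36 pairs, and r was 0.82 to 0.92 without the 2 farthest samples. Pmp2 ran against this set, with r of -0.62 to Cd36 (rho -0.69), -0.57 to Acsl1 (rho -0.61) and -0.49 to Fabp4 (rho -0.56), and adjusted permutation p of at most 0.00288. Fabp5 and Fabp3 had r between -0.11 and 0.25 with Cd36, Fabp4 and Acsl1. With stretches of the library numbering removed as well, r between Cd36 and Fabp4 was 0.92 and that between Cd36 and Pmp2 -0.57. HFD-STZ24 replicate 7 set the relation of Fabp7 and Pmp2: r was -0.02 with it (rho 0.27, adjusted permutation p = 0.904) and 0.51 without it (adjusted permutation p = 0.00149).

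**Figure D3:**
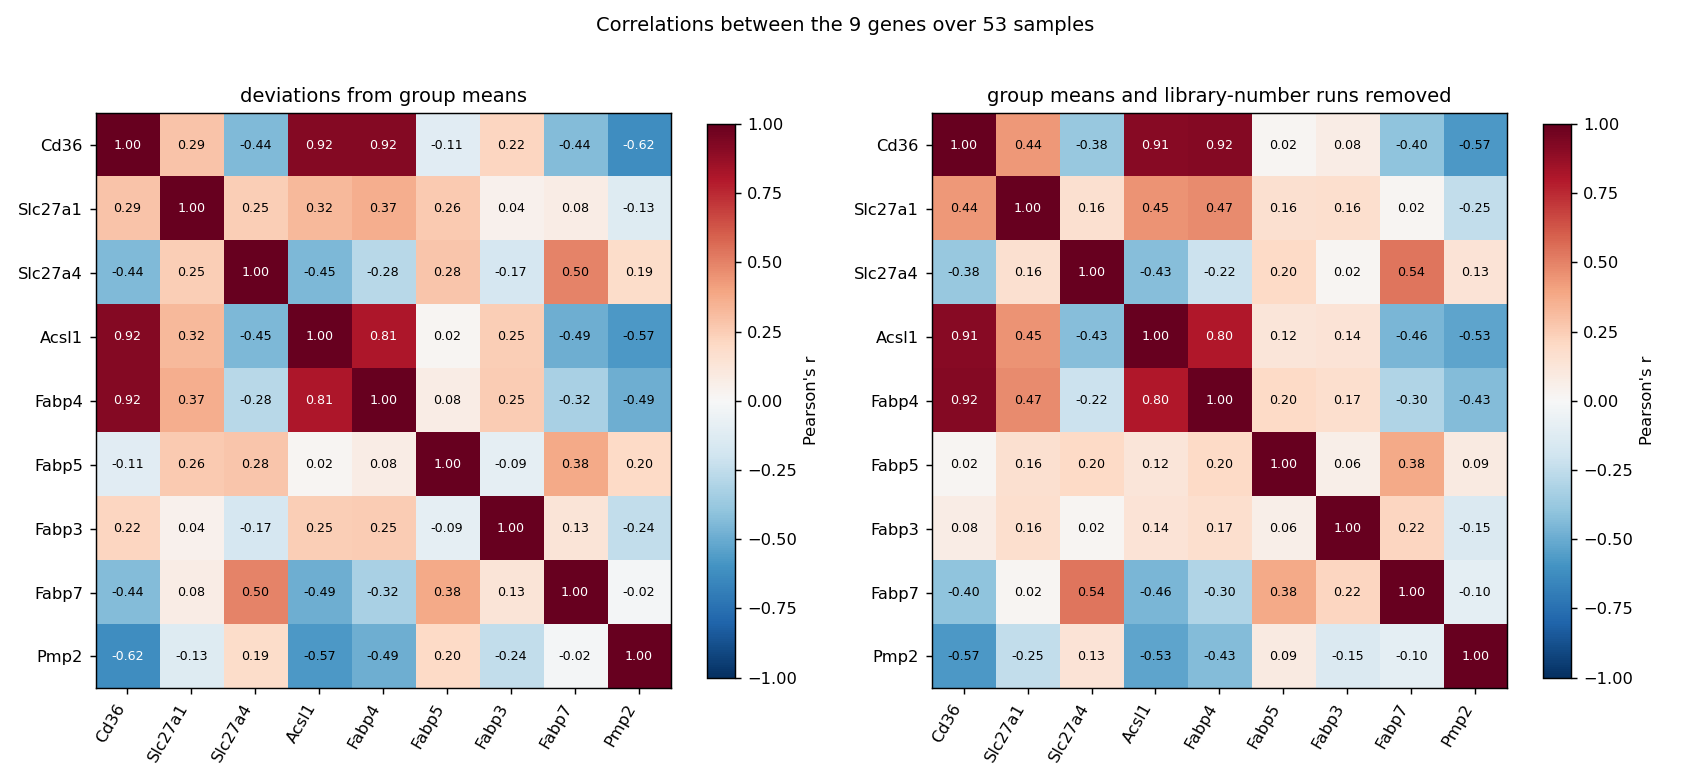
Pearson's r between the 9 genes (both axes) over 53 samples, from deviations from group means (left) and with stretches of the library numbering also removed (right). Cd36, Acsl1 and Fabp4 form a block with r of 0.81 to 0.92 on the left, and Pmp2 is negative to all 3.

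The same sets were seen against markers of the cell types of the nerve. The adipocyte score had r of 0.95 with Fabp4, 0.93 with Cd36 and 0.80 with Acsl1, each with the smallest permutation p of 1e-05. All 3 genes are themselves expressed by adipocytes, and the part of fat tissue in their variation was not tested. Cd36, Fabp4 and Acsl1 also had r of 0.78 to 0.84 with the endothelial score (Pecam1, Cdh5, Kdr, Tie1, Egfl7 and Emcn) and of 0.54 to 0.68 with the macrophage score. The skeletal muscle score had r of 0.76 with Fabp3 (rho 0.74), and 0.73 without the 2 farthest samples. Pmp2 had r of 0.80 with the score of myelinating Schwann cells (Mbp, Prx, Mag, Egr2 and Cldn19, rho 0.83), and Slc27a4 of 0.68 with that of non-myelinating Schwann cells (0.58 without HFD-STZ24 replicate 7). Fabp7 had r of -0.73 with the fibroblast score (-0.63 without that library). Benjamini-Hochberg adjusted permutation p over the 63 relations was at most 0.000441 for those named.

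**Figure D4:**
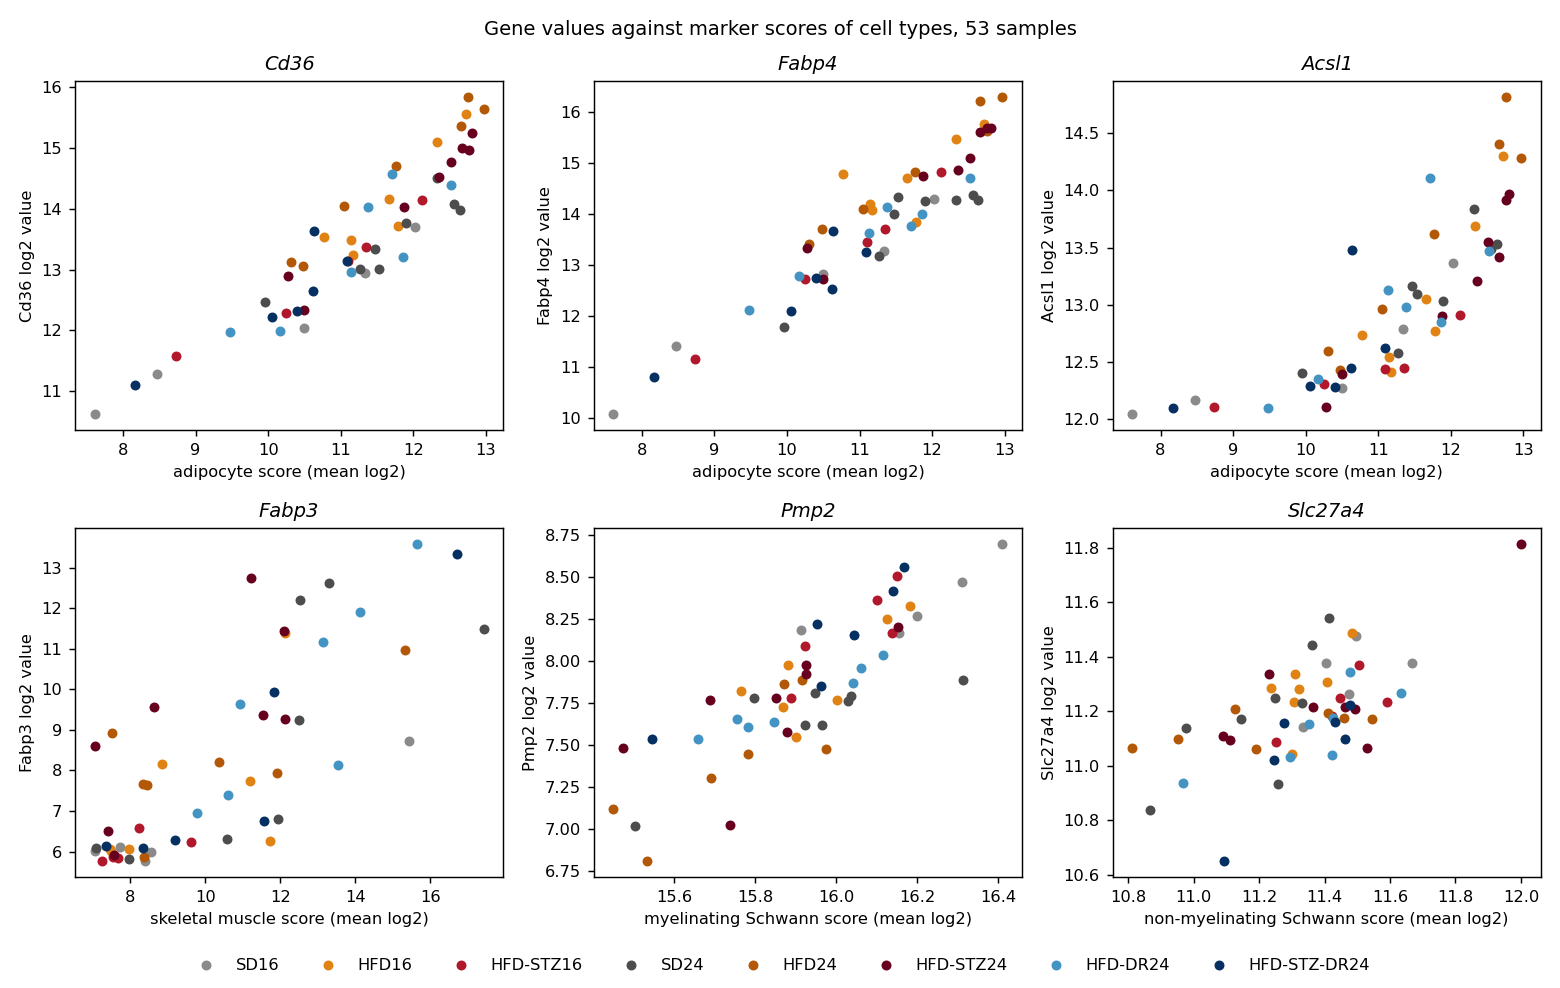
Log2 value of 6 of the genes (y axes) against a cell type score, the mean log2 value of its markers (x axes) in 53 samples, coloured by group. Cd36, Fabp4 and Acsl1 climb with the adipocyte score over the samples, the 11 samples with Fabp3 above 10 all have a muscle score of 11.23 or more, and Pmp2 climbs with the myelin score.

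The genes most like each member in these deviations, among 18060 genes and given as a description, were drawn from different processes. For Cd36 they were Lpl, the lipase that frees fatty acids from lipoproteins (r = 0.96), Ghr (0.96) and the glycerol channel Aqp7 (0.96). For Fabp4 they were Aqp7 (0.96), Adig (0.96) and Mgst1 (0.94), and for Acsl1 the triglyceride lipase Pnpla2 (0.95) and the triglyceride synthase Dgat2 (0.94). Pmp2 was nearest to Tmprss5 (0.85), the ceramide synthase Cers2 (0.85) and the fatty acid elongase Elovl6 (0.85), and Fabp5 to the acyl-CoA binding protein Dbi (0.80), Tmem205 (0.76) and Cstb (0.76). Fabp3 was nearest to its pseudogene Fabp3-ps1 (0.98), Ppp1r27 (0.93) and Gm11716 (0.92). Slc27a1 had no close partner, with r of 0.67 to Arxes2, 0.64 to Tysnd1 and 0.64 to Slc2a8, and Slc27a4 was nearest to Fam134a (0.83), Cerk (0.83) and Rtn3 (0.82). For Fabp7, Sncb, Gap43 and Fbxo2 came first (0.91 each), and without HFD-STZ24 replicate 7 they gave way to Myeov2, Atpif1 and Itgb3bp (0.82, 0.81 and 0.80). Without that library, Tmem40 (0.89) and Paqr6 (0.87) took the place of Tmprss5 and Cers2 for Pmp2, Aoc3 (0.96) and Pon3 (0.96) that of Ghr and Aqp7 for Cd36, Perm1 (0.92) that of Gm11716 for Fabp3, and Sept9 (0.83) and Fam102a (0.82) that of Cerk and Rtn3 for Slc27a4.

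Among 14 other genes of the FABP, SLC27 and acyl-CoA synthetase families, 9 passed the filter, and of 19 partners and regulators 18 did. In the 14 comparisons, 0 of them were called in limma. Angptl4, a secreted inhibitor of lipoprotein lipase that fatty acids induce, came closest. Its log2 values ran from 12.45 to 13.49 in SD24, from 12.81 to 14.21 in HFD24, from 12.81 to 14.06 in HFD-STZ24 and from 12.39 to 12.86 in HFD-STZ-DR24. The HFD-STZ-DR24 mice were low and close together, mostly below the HFD-STZ24 range, which they overlapped only at its lower end. Angptl4 was higher in HFD24 than in SD24 by 0.71 (SE 0.21, adjusted p = 0.266 in limma) and in HFD-STZ24 by 0.64 (SE 0.17, adjusted p = 0.515), and lower after reversal in HFD-STZ mice (log2 difference -0.90, SE 0.16, adjusted p = 0.0503). That last difference was called in limma with all 8 groups in 1 fit (adjusted p = 0.030), without HFD-STZ24 replicate 6 (0.00255) and without replicate 7 (0.0333).

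In the HFD24 comparison with SD24, 2 of 18 partners were higher and 1 lower at an unadjusted p under 0.05: Angptl4, the carnitine palmitoyltransferase Cpt1a (0.25, SE 0.10) and the aminotransferase Got2 (-0.41, SE 0.16). In HFD-STZ24, 1 partner was higher, Angptl4, and 1 family member lower, Slc27a6 (-0.58, SE 0.22). Reversal of HFD mice gave 6 lower and 1 higher partner, led by Dbi (-0.38, SE 0.15), Gpihbp1, which anchors lipoprotein lipase to the endothelium (-0.81, SE 0.35), and Got2 (0.39, SE 0.17). Reversal of HFD-STZ mice gave 6 lower and 1 higher partner, with Pparg, the nuclear receptor of adipocytes, at -1.36 (SE 0.34, adjusted p = 0.179 in limma) and Dbi at -0.44 (SE 0.11, adjusted p = 0.179), and 1 lower family member. Over all genes, 9.05%, 5.99%, 6.72% and 6.48% had an unadjusted p under 0.05 in these 4 comparisons. The medians over the 18 partners were 0.08, -0.06, -0.16 and -0.14, beside medians over all genes of 0.01, 0.00, -0.00 and 0.01.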

How the data were processed

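Per the labels, RNA of frozen sciatic nerve was extracted with Trizol and libraries were made with a TruSeq mRNA v2 kit, whereas the methods of the study name other kits and non-stranded, polyadenylated RNA. The submitters' processing notes list HISAT2, featureCounts, DESeq2 and mm10 (GRCm38). The deposited values are log2 expression values for 49568 genes per sample, which the authors normalised between samples by a method not given in the sources used here. They are not counts, so limma on the log2 values took the place of a count model, and the depth of each library is not given. Correlations between samples ran from 0.916 to 0.994, and 0 pairs were identical. Samples were grouped by the labels, which carry no replicate numbers: replicates are numbered in accession order as names only. The p-values of comparisons set a difference between group means against the spread between these samples.

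Each comparison was fitted with limma 3.58.1 (R 4.3.3, variance prior following mean expression) on its own groups. Kept were genes whose log2 values averaged at least 3.32, or 10 when unlogged, without 25 genes that exceeded 22 in a sample. The Benjamini-Hochberg adjustment covered every gene kept, and the fit was first tested on simulated data. For single genes, 2-sided exact permutation tests over samples were added. Correlations used numpy 2.4.6 and scipy 1.17.1 in Python 3.11.15, on deviations from group means. Marker scores are mean log2 values. A gene near Acsl1 in correlation and a myelin marker are not reported here, and the score was computed without the latter. The genes named are the 9 members, for each the 3 genes with the highest Pearson's r, and of the pathway lists up to 3 with the smallest p in each of 4 comparisons of 24-week mice. Cfd and the other adipocyte markers are named beside the results they move with, and Fabp3-ps1 for its shared sequence. The members and lists were chosen with earlier results of these data known. The alternatives were 2 other filters, all 8 groups in 1 fit, the same with 8 stretches of the library numbering as a term, 2 other variance priors, centring on sample medians, adipocyte and muscle scores as covariates, and leaving out single samples.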

Additional observations from a re-analysis of the deposited data

Results flagged for a closer look

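In 72 sets of samples (9 genes in 8 groups), 7 held 1 sample whose gap to its neighbour was too large a share of the group's range by Dixon's 95% criterion, and chance flags about 1 in 20 groups. HFD-STZ24 replicate 7 gave 2 of them, Fabp7 at 11.39 (next 6.91) and Slc27a4 at 11.82 (next 11.34). This library also stood apart over all genes, with neuronal genes such as Asic3 (11.21, at most 4.96 elsewhere) and Slc17a6 (11.40, at most 5.43 elsewhere) in front. Fabp3 was high in SD16 replicate 2 (8.73, next 6.11) and in HFD16 replicate 6 (11.39, next 8.16). Fabp4 was low in SD24 replicate 4 (11.78, next 13.18), Pmp2 in SD24 replicate 5 (7.02, next 7.62) and Slc27a4 in HFD-STZ-DR24 replicate 4 (10.65, next 11.02).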

How the results depend on the processing

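None of the 9 genes was called in any of the 16 reported fits, and 251 alternative fits gave the same 0 of 9 while 6 did not. The count was 2 with the adipocyte score as a covariate and 1 with that score without Cfd for HFD24 against SD24, 1 with the adipocyte score for HFD-DR24 against HFD24, and 1, Pmp2, with all 8 groups and stretches of library numbers for SD24 against SD16. Leaving out samples gave 0 to 2 calls for HFD-STZ-DR24 against HFD-STZ24 and 0 for every other comparison tried so.

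With the adipocyte score as a covariate, some differences at an unadjusted p under 0.05 in one of the fits turned direction. They were Acsl1 in HFD-STZ-DR24 against HFD-STZ24 (0.20, and 0.30 without Cfd), Cd36 there without Cfd (0.10), Cd36 and Fabp4 in HFD-STZ-DR24 against SD24 (0.10 and 0.12, and 0.12 and 0.15 without Cfd) and Fabp4 in SD24 against SD16 (-0.086, and -0.12 without Cfd). The HFD effect by age of Acsl1 turned to 0.73 (0.69 without Cfd), and the reversal effect by STZ to 0.71 for Cd36 (0.58 without Cfd) and 0.68 for Acsl1. The correlation of Fabp7 and Pmp2 was 0.51 without HFD-STZ24 replicate 7. The score holds genes that move with the diets, and the cause of these changes was not tested. The alternatives without Cfd and without HFD-STZ24 replicate 7 outside the planned comparisons were chosen after seeing the data.

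The labels carry no replicate numbers and name no pairs of samples, so no paired test was run. Stretches of the library numbering, which mostly held 1 sample of a group, were fitted instead as a term over all 8 groups, with the call of Pmp2 given above. The depth of each library is not given, so the counting error of the low values of Fabp3 and Fabp7 cannot be given either.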
